A study of Mus musculus with 6 samples.

Results

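Cadherins and protocadherins were followed in mouse vagal ganglia after infusion of an insulin receptor antagonist. Every gene row was taken whose symbol is Cdh with a number, Cdhr with 1 digit, or begins with Pcdh. Cdh19, a gene of the glial lineage, was left out. This gave 96 of the 32719 gene rows in the count files. Of these, 39 are non-clustered genes (22 Cdh, 5 Cdhr and 12 Pcdh) and 57 belong to the 3 protocadherin gene clusters (14 Pcdha, 22 Pcdhb and 21 Pcdhg rows). A total of 88 members had enough counts to be tested, of which 32 were non-clustered and 56 clustered.

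The treated libraries (n = 3) came from the jugular-nodose ganglia of wild-type C57BL/6J males in which osmotic pumps under the skin delivered S961 in PBS, at 10 nmol per week for 2 weeks. S961 is a peptide that blocks the insulin receptor. The control libraries (n = 3) came from the same ganglia of wild-type C57BL/6J males whose pumps held PBS alone, also for 2 weeks. S961 stands in the treatment label of every library, controls included, so the control group rests on the sample titles and the protocol. The source labels name spinal cord, and the ganglia stand in the cell labels. P2rx2, an ATP receptor subunit typical of nodose neurons, was read at 160, 177 and 81.7 CPM (counts scaled to a common library total) in treated replicates 1, 2 and 3, against 208, 206 and 205 CPM in control replicates 1, 2 and 3. The mice's age, and whether a library is 1 animal or a pool, were not stated in the labels, so p-values measure the spread between these samples, which may be technical. In a dissected ganglion, fewer cells of a type and less RNA per cell cannot be told apart.

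Cadherins are calcium-dependent adhesion proteins that bind the same or a related cadherin on a neighbouring cell. Type I and type II cadherins hold catenins inside the cell, and the catenins link them to actin. Non-clustered protocadherins lack the catenin site, and several of them bind the WAVE complex, which drives branched actin. In the Pcdha and Pcdhg clusters each variable first exon has its own promoter and is spliced to constant exons that all rows of the cluster share. Pcdhb genes are single exons without such a constant part. A neuron picks a few clustered promoters, which gives it a surface code by which it tells its own branches from those of other cells.

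The libraries held 12898607 to 33522486 gene counts in the treated group and 14844384 to 25749857 in the control group. Treated replicate 3, the smallest, stood apart from the others, and for the 32 tested non-clustered members it was the lowest of the 6 libraries 13 times (40.6%) and the highest 9 times (28.1%). Over all 16019 tested genes, that library was the lowest for 34.2% and the highest for 34.4%. Neuron markers (8 genes such as Snap25 and Tubb3) summed to 5271 to 6784 CPM in treated libraries and 6280 to 6810 CPM in controls. Markers of the placode-derived nodose neurons (7 genes) summed to 340, 370 and 164 CPM in treated replicates 1, 2 and 3, against 468, 470 and 461 CPM in control replicates 1, 2 and 3. Markers of the crest-derived jugular neurons (7 genes) summed to 543, 328 and 654 CPM in treated replicates 1, 2 and 3, against 282, 294 and 248 CPM in control replicates 1, 2 and 3. The jugular sums did not overlap between the groups, and neither did the nodose sums, in the opposite direction. Markers of sympathetic neurons and glomus cells (5 genes) summed to 211 to 335 CPM in treated libraries and 359 to 377 CPM in controls, also without overlap. Chga made up most of each sum and by itself overlapped between the groups, as did Slc6a2, whereas Th, Dbh and Ddc did not. In treated replicate 3, fat cell markers summed to 474 CPM and macrophage markers to 224 CPM, against 8.03 to 55.2 and 31.9 to 70.1 CPM in the other 5 libraries. Skeletal muscle markers (8 genes) summed to 14.9, 88.9 and 148 CPM in control replicates 1, 2 and 3. They summed to 23.2, 6.41 and 33.6 CPM in treated replicates 1, 2 and 3. The part of these cells in the members' values was not tested.

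Treated ganglia were compared with controls to see how adhesion genes of the vagal ganglia differ after S961. No member passed an adjusted p of 0.05 in edgeR's quasi-likelihood test with Benjamini-Hochberg adjustment over all genes, where 0 of 16019 genes (0%) passed. At an unadjusted edgeR p under 0.05 stood 6 of the 88 members (6.82%), against 1068 of all genes (6.67%), so the share of members was near the background. All 6 were non-clustered genes (6 of 32, 18.8%): Cdh1, Cdh8, Cdh11 and Pcdh7 were higher in treated ganglia and Pcdh11x and Cdh24 lower. Among all genes, 640 (4%) were higher and 428 (2.67%) lower at that p. With treated replicate 2 or treated replicate 3 left out, 10 members stood under it in place of 6. The share of all genes in those fits is not given here, so that rise is no result about the members. Cdh24 was no longer under it without treated replicate 1, control replicate 1 or control replicate 2. Cdh1, Cdh8, Cdh11, Pcdh7 and Pcdh11x stayed under it with each library left out. The DESeq2 Wald test called 89 of 16019 genes and 2 of the 88 members: Cdh1 (adjusted p = 0.00664) and Pcdh11x (adjusted p = 0.0363). On counts simulated without an outlying library, 26.2% of the DESeq2 calls were false. Limma-voom called 0 genes.

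The 3 treated libraries lay on 1 side of the 3 controls for 12 of 88 members (13.6%), against 2354 of 16019 genes (14.7%). They lay above all controls for 8 members and below for 4, while among all genes 7.07% lay above and 7.63% below. Of those without overlap, 8 were non-clustered (8 of 32, 25%) and the other 4 were Pcdhb genes. Log2 fold changes were positive for 8454 and negative for 7565 of all 16019 genes, and positive for 53 and negative for 35 of the 88 members. Of these 88, 35 are Pcdha and Pcdhg rows that mostly repeat the same reads of shared exons (14 negative, 21 positive), which limits what the shares and medians over members or clustered rows count. The median log2 fold change, treated over control, was -0.09 for the 32 non-clustered members and 0.11 for the 56 clustered rows, beside 0.02 over all genes.

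**Figure D1:**
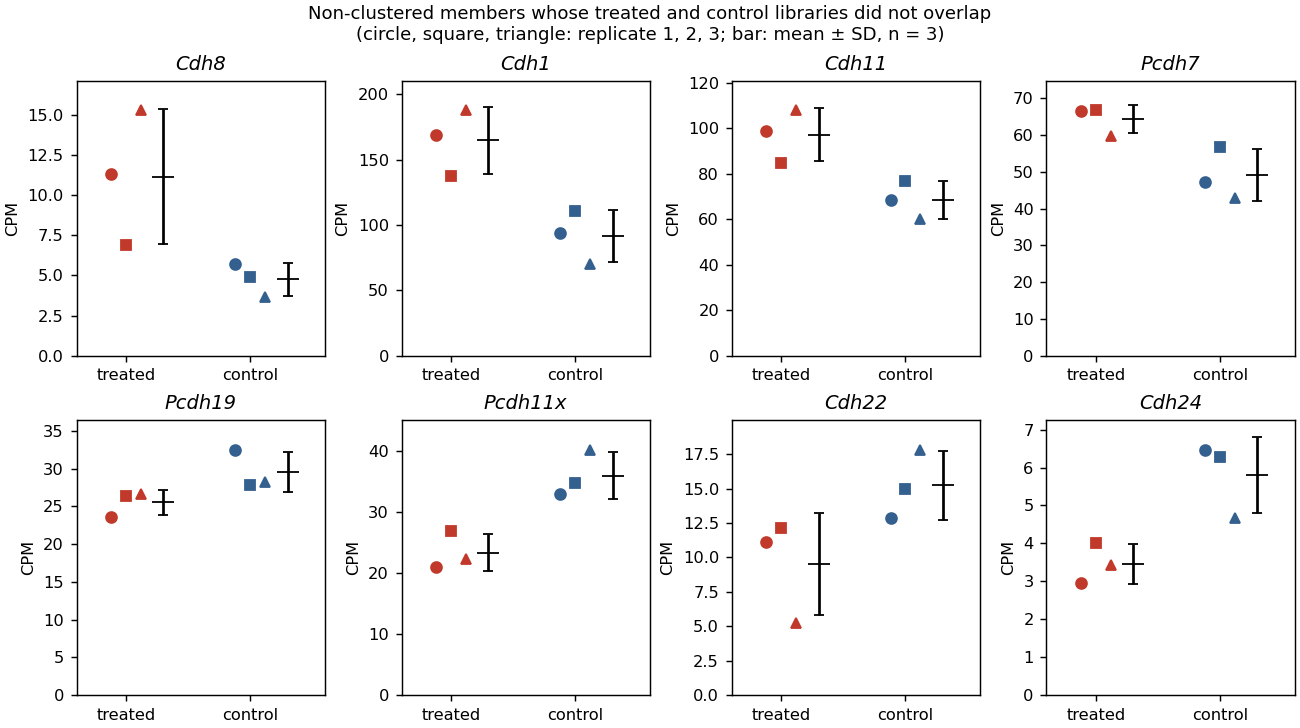
Levels in CPM (y axis, linear) of the 8 non-clustered members whose treated and control libraries did not overlap, with treated left of control, 1 point for each library, and the mean ± SD (n = 3) as a bar. In Cdh8, Cdh1, Cdh11 and Pcdh7 every treated point lies above the controls, with Cdh1 at 137 to 188 CPM in treated ganglia and 70.6 to 111 CPM in controls. In Pcdh19, Pcdh11x, Cdh22 and Cdh24 every treated point lies below them.

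Type I cadherins, the classical junction cadherins, had 5 members, all tested. Cdh1 (E-cadherin, the cadherin of epithelial junctions, also known from the junctions within myelinating Schwann cells; chr8:106603351-106670246, plus strand, GRCm38) had a level per kilobase of exon of 36.0 CPM per kb in treated ganglia and 20.03 in controls. Pcdh1 had 21.4 CPM per kb in treated ganglia, the next highest of the non-clustered members, and 20.6 in controls, where it was the highest. Cdh2 (18.1) and Pcdh9 (16.4) came after these 2 genes in controls. Cdh1 was read at 169, 137 and 188 CPM in treated replicates 1, 2 and 3, against 93.7, 111 and 70.6 CPM in control replicates 1, 2 and 3. Every treated library lay above every control. On the log2 scale the fold change was 0.84 ± 0.18 (SE), 1.80-fold, with an adjusted p of 0.568 in edgeR. Left-out libraries moved it between 0.69 and 0.99, and its adjusted p spanned 0.0066 to 0.995 over all alternatives. Other epithelial markers were at low levels: the 6 listed (Cldn7, Krt19, Krt18, Epcam, Krt8 and Krt5) summed to 3.45, 1.85 and 4.37 CPM in treated replicates 1, 2 and 3, against 3.55, 0.654 and 1.89 CPM in control replicates 1, 2 and 3. Schwann cell markers (7 genes) summed to 1273, 1942 and 2028 CPM in treated replicates 1, 2 and 3, against 1028, 1654 and 1084 CPM in control replicates 1, 2 and 3. Those sums overlapped between the groups. Of the 7 Schwann cell markers, 7 had positive fold changes (median log2 fold change 0.59) and 1 an unadjusted edgeR p under 0.05. Among treated libraries the lowest sum was in replicate 1 and the least Cdh1 in replicate 2. The part of Schwann cells in the Cdh1 result was not tested.

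Cdh2 (N-cadherin, which acts in axon growth and at synapses) was read at 135, 147 and 78.9 CPM in treated replicates 1, 2 and 3, against 137, 153 and 148 CPM in control replicates 1, 2 and 3. The groups overlapped, and only treated replicate 3 lay far below the rest. The log2 fold change was -0.28 ± 0.22 (edgeR adjusted p = 0.779), and it lay between -0.45 and -0.05 with each library left out. Cdh4 (R-cadherin) averaged 15.7 ± 0.921 CPM in treated ganglia and 17.1 ± 2.55 CPM in controls (SD, n = 3 each). Cdh15 (M-cadherin, of muscle) averaged 2.66 ± 0.608 and Cdh3 (P-cadherin) 1.18 ± 0.0612 CPM in treated ganglia, against 2.73 ± 0.481 and 1.40 ± 0.419 CPM in controls. All 3 overlapped between the groups. The sign for Cdh15 was negative here and positive in the limma-voom fits. The median log2 fold change of type I members was -0.12, with 1 of 5 positive.

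Type II cadherins, which sort neurons into groups and guide synaptic partners, had 12 members, of which 11 were tested. Their median log2 fold change was -0.13, with 4 positive and 7 negative values. Of these 11, 3 (27.3%) had an unadjusted edgeR p under 0.05, beside 6.67% of all genes. That count is a description of 11 genes.

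Cdh11 (OB-cadherin, known from mesenchymal and neural cells; chr8:102632095-102785642, minus strand) was read at 99.0, 84.96 and 108 CPM in treated replicates 1, 2 and 3, against 68.7, 76.7 and 60.1 CPM in control replicates 1, 2 and 3. No treated library overlapped with the controls. Cdh11 had a log2 fold change of 0.50 ± 0.13, 1.42-fold, with an edgeR adjusted p of 0.607. Fibroblast markers (6 genes) summed to 476, 739 and 2138 CPM in treated replicates 1, 2 and 3, against 887, 658 and 1136 CPM in control replicates 1, 2 and 3. Those sums overlapped between the groups. Treated replicate 3 had the highest fibroblast sum and the highest Cdh11, and treated replicate 1 had the lowest fibroblast sum with the second highest Cdh11. The part of fibroblasts in the Cdh11 result was not tested.

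Cdh8 (a type II cadherin of neurons; chr8:99024471-99416471, minus strand) was read at 11.3, 6.86 and 15.3 CPM in treated replicates 1, 2 and 3, against 5.73, 4.89 and 3.65 CPM in control replicates 1, 2 and 3. All treated libraries lay above the controls, and treated replicate 2 lay closest to them. Cdh8 had a log2 fold change of 1.22 ± 0.32, 2.32-fold, with an edgeR adjusted p of 0.621. Without treated replicate 3 it was 0.93. Cdh9, a type II cadherin known from mossy fibre synapses of the hippocampus, was read at 5.27, 2.68 and 9.15 CPM in treated replicates 1, 2 and 3, against 3.61, 2.54 and 1.49 CPM in control replicates 1, 2 and 3. Its groups overlapped through treated replicate 2. Here the log2 fold change was 1.14 ± 0.50 (edgeR adjusted p = 0.737), and 0.64 without treated replicate 3.

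Cdh24 (chr14:54631231-54641364, minus strand), a catenin-binding type II cadherin, lay on the other side. It was read at 2.95, 4.01 and 3.42 CPM in treated replicates 1, 2 and 3, against 6.48, 6.27 and 4.66 CPM in control replicates 1, 2 and 3. Its log2 fold change was -0.75 ± 0.25, 0.595-fold, with an edgeR adjusted p of 0.692. Cdh22 (known also as PB-cadherin) was read at 11.1, 12.2 and 5.25 CPM in treated replicates 1, 2 and 3, against 12.9, 15.0 and 17.8 CPM in control replicates 1, 2 and 3. Every treated library of both genes lay below every control. The log2 fold change of Cdh22 was -0.66 ± 0.30 (edgeR adjusted p = 0.737), and -0.39 without treated replicate 3.

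The other type II members overlapped between the groups. Cdh5 (VE-cadherin, of endothelial junctions) was read at 17.0, 27.1 and 40.4 CPM in treated replicates 1, 2 and 3, against 27.6, 20.8 and 24.5 CPM in control replicates 1, 2 and 3, so that 1 treated library was the lowest and another the highest of all. Endothelial markers (7 genes) summed to 147, 169 and 169 CPM in treated replicates 1, 2 and 3, against 156, 167 and 139 CPM in control replicates 1, 2 and 3. Cdh6 (K-cadherin) averaged 37.4 ± 5.93 CPM in treated ganglia and 41.4 ± 4.34 CPM in controls. Cdh18, a neuronal member, averaged 23.5 ± 5.72 CPM in treated ganglia and 27.8 ± 2.50 CPM in controls. Cdh10 and Cdh12, both neuronal, averaged 18.7 ± 2.67 and 6.998 ± 2.69 CPM in treated ganglia, against 19.4 ± 2.12 and 7.73 ± 1.27 CPM in controls. Cdh20 averaged 3.52 ± 1.71 CPM in treated ganglia and 4.71 ± 1.15 CPM in controls. None of these 6 had an unadjusted edgeR p under 0.05.

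The non-clustered protocadherins were all tested (12 genes), with log2 fold changes above 0 in 6 and below 0 in 6. Their median was -0.06, or 0.03 when treated replicate 3 was left out. Pcdh11x, an X-linked member of the delta-1 group, lies at chrX:120290259-120910619 on the plus strand. It was read at 20.9, 26.8 and 22.3 CPM in treated replicates 1, 2 and 3, against 32.8, 34.7 and 40.2 CPM in control replicates 1, 2 and 3. All treated libraries lay below the controls. The log2 fold change was -0.62 ± 0.13, 0.650-fold, with an edgeR adjusted p of 0.568, and it ranged from -0.75 to -0.51 over the alternatives. Pcdh7 (NF-protocadherin, of the same delta-1 group; chr5:57717967-58133230, plus strand) went the other way, at 66.4, 66.7 and 59.8 CPM in treated replicates 1, 2 and 3, against 47.3, 56.8 and 43.0 CPM in control replicates 1, 2 and 3. The lowest treated library lay above the highest control by a small margin. The log2 fold change was 0.39 ± 0.12, 1.31-fold, with an edgeR adjusted p of 0.670.

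Pcdh19, an X-linked delta-2 member in which loss of function causes an epilepsy in humans, was read at 23.6, 26.4 and 26.6 CPM in treated replicates 1, 2 and 3, against 32.6, 27.8 and 28.2 CPM in control replicates 1, 2 and 3. The groups did not overlap but came close. Its log2 fold change was -0.21 ± 0.11 (edgeR adjusted p = 0.742), and -0.26 to -0.14 with each library left out. Another 4 members were abundant. Pcdh1, of the delta-1 group, averaged 188 ± 23.5 CPM in treated ganglia and 181 ± 19.9 CPM in controls. Pcdh17, a delta-2 member that binds the WAVE complex, averaged 120 ± 16.6 CPM in treated ganglia and 137 ± 6.22 CPM in controls. Both overlapped between the groups. Pcdh9, of the delta-1 group, averaged 116 ± 24.8 CPM in treated ganglia and 111 ± 7.40 CPM in controls. Pcdh10 (OL-protocadherin, which also binds the WAVE complex) averaged 88.1 ± 20.7 CPM in treated ganglia and 99.0 ± 17.4 CPM in controls. These pairs also overlapped, and treated replicate 3 was the lowest treated library in all 4 genes.

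Of the rarer protocadherins, Pcdh20 averaged 4.99 ± 1.77 CPM in treated ganglia and 6.74 ± 1.46 CPM in controls. Pcdh18 averaged 6.09 ± 1.65 CPM in treated ganglia and 4.49 ± 0.905 CPM in controls. Pcdh8, near the lower limit of the test, had the highest fitted log2 fold change of all members, 1.25 ± 0.88 (edgeR adjusted p = 0.761). It was read at 0.952, 1.15 and 2.07 CPM in treated replicates 1, 2 and 3, against 0.229, 1.31 and 0.0676 CPM in control replicates 1, 2 and 3. Its groups overlapped. Pcdh12, an endothelial protocadherin, averaged 2.46 ± 0.192 CPM in treated ganglia and 2.97 ± 0.814 CPM in controls.

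Pcdh15 and Cdh23 form the tip links of inner ear hair cells. Pcdh15 averaged 7.82 ± 1.26 CPM in treated ganglia and 7.15 ± 0.300 CPM in controls. Cdh23 was read at 1.16, 1.57 and 3.26 CPM in treated replicates 1, 2 and 3, against 0.688, 0.385 and 1.49 CPM in control replicates 1, 2 and 3. The groups overlapped for both, and the log2 fold change of Cdh23 was 1.23 ± 0.64 (edgeR adjusted p = 0.742). Leaving out treated replicate 3 gave 0.72, and leaving out control replicate 3 gave 1.88. Cdh13 (T-cadherin, which is anchored by a lipid and binds adiponectin) averaged 8.00 ± 1.11 CPM in treated ganglia and 7.16 ± 1.31 CPM in controls. Cdhr1, best known as the photoreceptor cadherin, was far above the other Cdhr genes, at 47.0, 52.2 and 37.9 CPM in treated replicates 1, 2 and 3, against 37.9, 44.5 and 35.8 CPM in control replicates 1, 2 and 3. Its log2 fold change was 0.22 ± 0.14 (edgeR adjusted p = 0.754) with overlapping groups, and 0.10 to 0.33 with each library left out. Cdhr2, of the intestinal brush border, averaged 0.404 ± 0.200 CPM in treated ganglia and 0.528 ± 0.158 CPM in controls.

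Too few counts to be tested were found for 8 members: Cdhr3, Cdhr4, Cdhr5, Cdh7, Cdh16, Cdh17, Cdh26 and Pcdhb1. They include Cdh16 and Cdh17, the cadherins of kidney and of intestinal epithelium. Single libraries reached at most 1.11 CPM in the treated group (Cdh17) and 1.01 CPM in the control group (Cdh7).

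**Figure D2:**
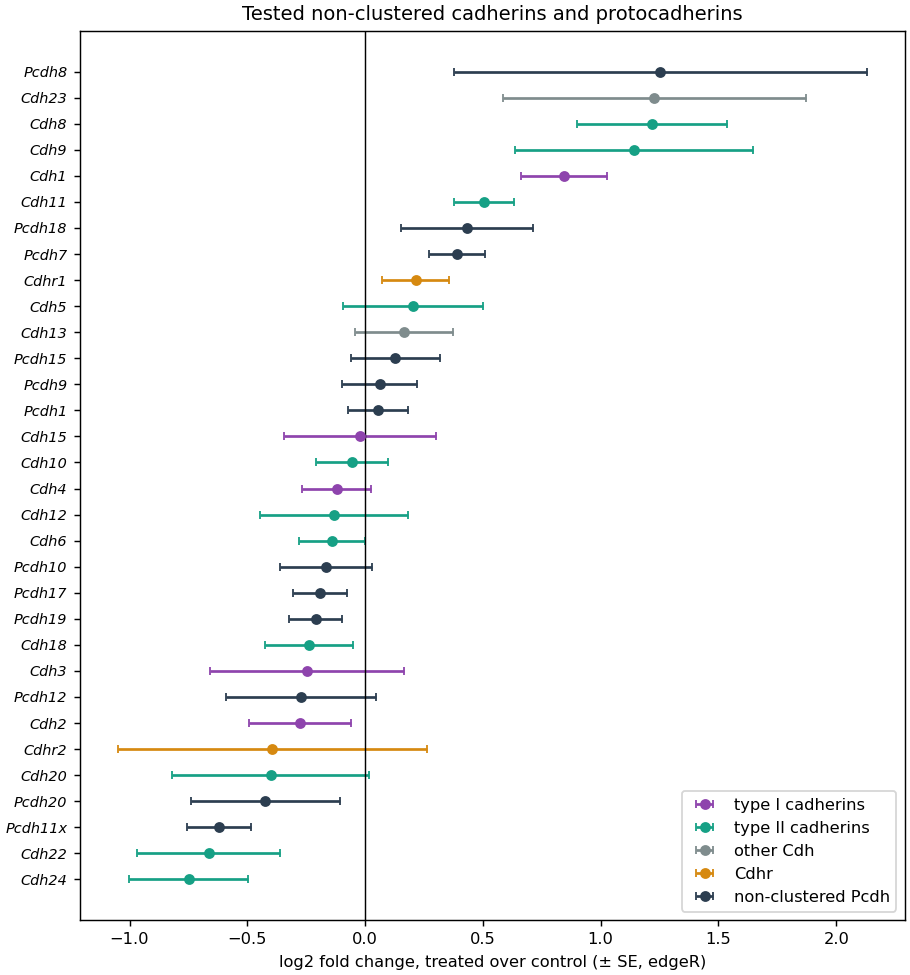
Log2 fold change, treated over control, of each of the 32 tested non-clustered members (x axis), ordered by size down the page and coloured by subfamily, with bars of ± 1 SE from edgeR. Values run from 1.25 (Pcdh8) to -0.75 (Cdh24), and each subfamily with more than 2 tested genes has members on both sides of 0.

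Promoter sequences are shown for Cdh8, Pcdh7 and Cdh24, which are those of the 6 members under an unadjusted p of 0.05 that the RefSeq promoter table holds, so that the 2 higher genes can be set beside the lower one. Each runs 5′ to 3′ in the sense of the gene over 300 bases, from 250 before to 50 after the start site, in build GRCm38.p6. In all, 3 motifs were searched on both strands and are in capitals: the E-box of Snail and Zeb repressors (CAGGTG or CACCTG), the AP-1 site (TGANTCA) and the GC box of Sp1 (GGGCGG or CCGCCC).
Cdh8, chr8:99416422-99416721, minus strand: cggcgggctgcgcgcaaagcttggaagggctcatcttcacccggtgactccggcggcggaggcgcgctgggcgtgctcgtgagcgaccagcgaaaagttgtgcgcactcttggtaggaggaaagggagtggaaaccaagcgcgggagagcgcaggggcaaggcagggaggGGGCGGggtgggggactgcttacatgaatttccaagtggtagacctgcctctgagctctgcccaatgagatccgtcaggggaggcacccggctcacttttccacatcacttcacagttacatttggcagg
Pcdh7, chr5:57717831-57718130, plus strand: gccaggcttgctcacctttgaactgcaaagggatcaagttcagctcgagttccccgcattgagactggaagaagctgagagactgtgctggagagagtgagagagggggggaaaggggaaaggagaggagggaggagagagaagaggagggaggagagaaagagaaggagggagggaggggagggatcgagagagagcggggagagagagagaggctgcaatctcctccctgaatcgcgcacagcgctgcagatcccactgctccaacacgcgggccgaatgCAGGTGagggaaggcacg
Cdh24, chr14:54641315-54641614, minus strand: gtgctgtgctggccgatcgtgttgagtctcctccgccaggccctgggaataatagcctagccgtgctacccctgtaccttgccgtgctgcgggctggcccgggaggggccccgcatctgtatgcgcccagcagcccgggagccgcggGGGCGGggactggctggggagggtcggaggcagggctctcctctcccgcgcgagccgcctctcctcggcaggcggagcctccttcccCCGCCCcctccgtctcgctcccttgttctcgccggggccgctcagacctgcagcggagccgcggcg
The Cdh8 window holds 1 GC box, 80 bases before the start site by its first base (position -80), and the Cdh24 window holds 2, at -103 and -16. The Pcdh7 window holds 1 E-box at 33 bases after the start. None of the 3 windows holds an AP-1 site. Over the 32851 promoters of the table, 35.7% hold a GC box, 20.2% this E-box and 7.81% an AP-1 site, and no motif overlapped another in the 3 windows.

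The 6 members under an unadjusted p of 0.05 were set beside the neuron markers library by library, on the log2 scale relative to the control mean. Jugular markers lay at 0.98, 0.26 and 1.25 in treated replicates 1, 2 and 3. Cdh1 lay at 0.88, 0.59 and 1.04, Cdh8 at 1.25, 0.53 and 1.68, and Cdh11 at 0.53, 0.31 and 0.66 in the same libraries. These 3 cadherins and the jugular markers thus had the same order among the treated libraries, with replicate 3 highest and replicate 2 lowest. Few orders are possible with 3 libraries, and treated replicate 3 was the highest of the 6 for 34.4% of all tested genes. Pcdh7 did not follow that order, at 0.44, 0.44 and 0.29. Among the controls, the jugular markers, Cdh1, Cdh11 and Pcdh7 were highest in replicate 2 and lowest in replicate 3. Cdh8 was highest in control replicate 1, at 0.27, 0.039 and -0.38 in control replicates 1, 2 and 3. Nodose markers lay at -0.46, -0.33 and -1.51 in treated replicates 1, 2 and 3. Pcdh11x lay at -0.78, -0.42 and -0.69 and Cdh24 at -0.98, -0.53 and -0.76, so both were lowest in replicate 1 while the nodose markers were lowest in replicate 3. Of the 7 jugular markers, 7 had positive fold changes and 6 an unadjusted edgeR p under 0.05. Of the 7 nodose markers, 7 were negative and 3 had such a p. The part of the mix of jugular and nodose neurons in these members' values was not tested.

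**Figure D3:**
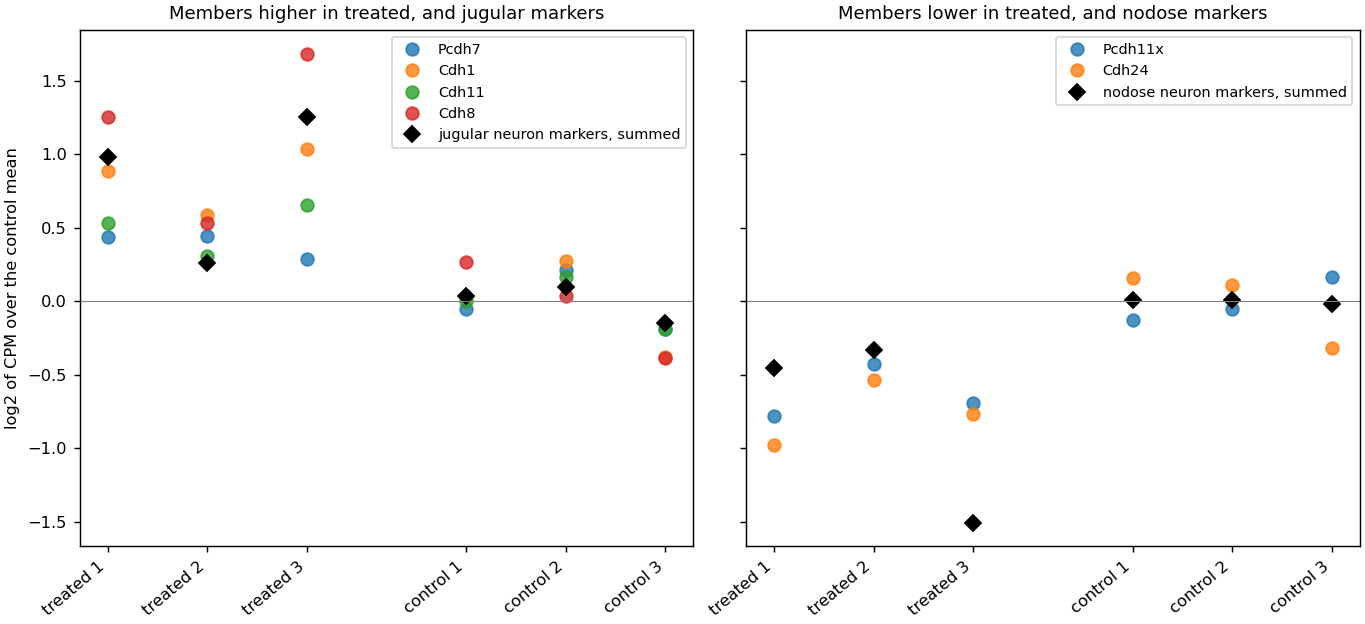
Level in each library as log2 of CPM over the control mean (y axis), treated libraries left of controls, for the 4 members higher in treated ganglia with the summed jugular markers (left panel) and the 2 lower members with the summed nodose markers (right panel). Cdh1, Cdh8 and Cdh11 are highest in treated replicate 3 and lowest of the treated in replicate 2, as are the jugular markers (1.25 and 0.26), whereas the nodose markers have their minimum of -1.51 in treated replicate 3.

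The clustered protocadherins lie side by side on chromosome 18. Their counts need care, since 2860 exon bases are shared by all 14 Pcdha rows and 2116 by all 21 Pcdhg rows, and the files count a read of the shared exons once in every row. The lowest row of the cluster held 95.4% to 96.8% of the count of the median row in Pcdha and 91.7% to 94.7% in Pcdhg, over the 6 libraries. The lowest row taken once for each row made up 91.1% to 92.8% of the summed Pcdha rows and 91.6% to 93.4% of the summed Pcdhg rows. Rows of 1 cluster are thus mostly repeats of the same reads, and a count of rows in 1 direction is close to a single observation. All 14 Pcdha rows had a negative log2 fold change (median -0.09) and all 21 Pcdhg rows a positive one (median 0.12), and both medians kept their sign under the other scalings tried. Without treated replicate 3 the Pcdha median was 0.07.

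Taken once, the lowest Pcdha row stood at 153 ± 32.8 CPM in treated ganglia and 163 ± 4.48 CPM in controls (SD, n = 3 each). Its log2 fold change was -0.09 ± 0.15 (edgeR adjusted p = 0.905). The lowest Pcdhg row stood at 127 ± 2.80 CPM in treated ganglia and 117 ± 10.49 CPM in controls, with a log2 fold change of 0.12 ± 0.09 (edgeR adjusted p = 0.785). These are upper limits for the shared reads.

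Counts above the lowest row are a lower limit for what comes from the exon bases of a row that the whole cluster does not share. Those bases may hold more than the variable first exon. Pcdhac2, a C-type isoform known for keeping serotonergic axons apart, held the most. Its counts above the lowest row came to 112, 93.7 and 68.2 CPM in treated replicates 1, 2 and 3, against 109, 107 and 116 CPM in control replicates 1, 2 and 3. That was 49.1% to 54.2% of the cluster's counts above the lowest row in treated ganglia and 54.0% to 59.8% in controls. Treated replicate 3 was the lowest of the 6, and the groups overlapped (log2 fold change -0.28 ± 0.17, edgeR adjusted p = 0.746 in the fit with shared reads taken once). Pcdhac1, the other C-type Pcdha isoform, had 13.4 ± 2.27 CPM in treated ganglia and 12.3 ± 1.26 CPM in controls by the same measure. In the Pcdhg cluster, the C-type isoform Pcdhgc3 held the most, with 48.0, 45.9 and 51.7 CPM in treated replicates 1, 2 and 3, against 37.6, 50.3 and 35.2 CPM in control replicates 1, 2 and 3. Its share was 20.9% to 23.2% of the cluster in treated ganglia and 21.2% to 22.4% in controls. Pcdhga11 had 17.0 ± 3.88 CPM in treated ganglia and 11.1 ± 3.65 CPM in controls, with overlapping groups.

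Per kilobase of exons not shared by the whole cluster, the counts above the lowest row came to 61.1 ± 13.0 CPM per kb summed over Pcdha in treated ganglia and 70.0 ± 6.70 in controls. For Pcdhg the sums were 74.8 ± 5.21 CPM per kb in treated ganglia and 64.2 ± 13.9 in controls. Of the 35 rows of both clusters, none had groups without overlap by this measure.

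**Figure D4:**
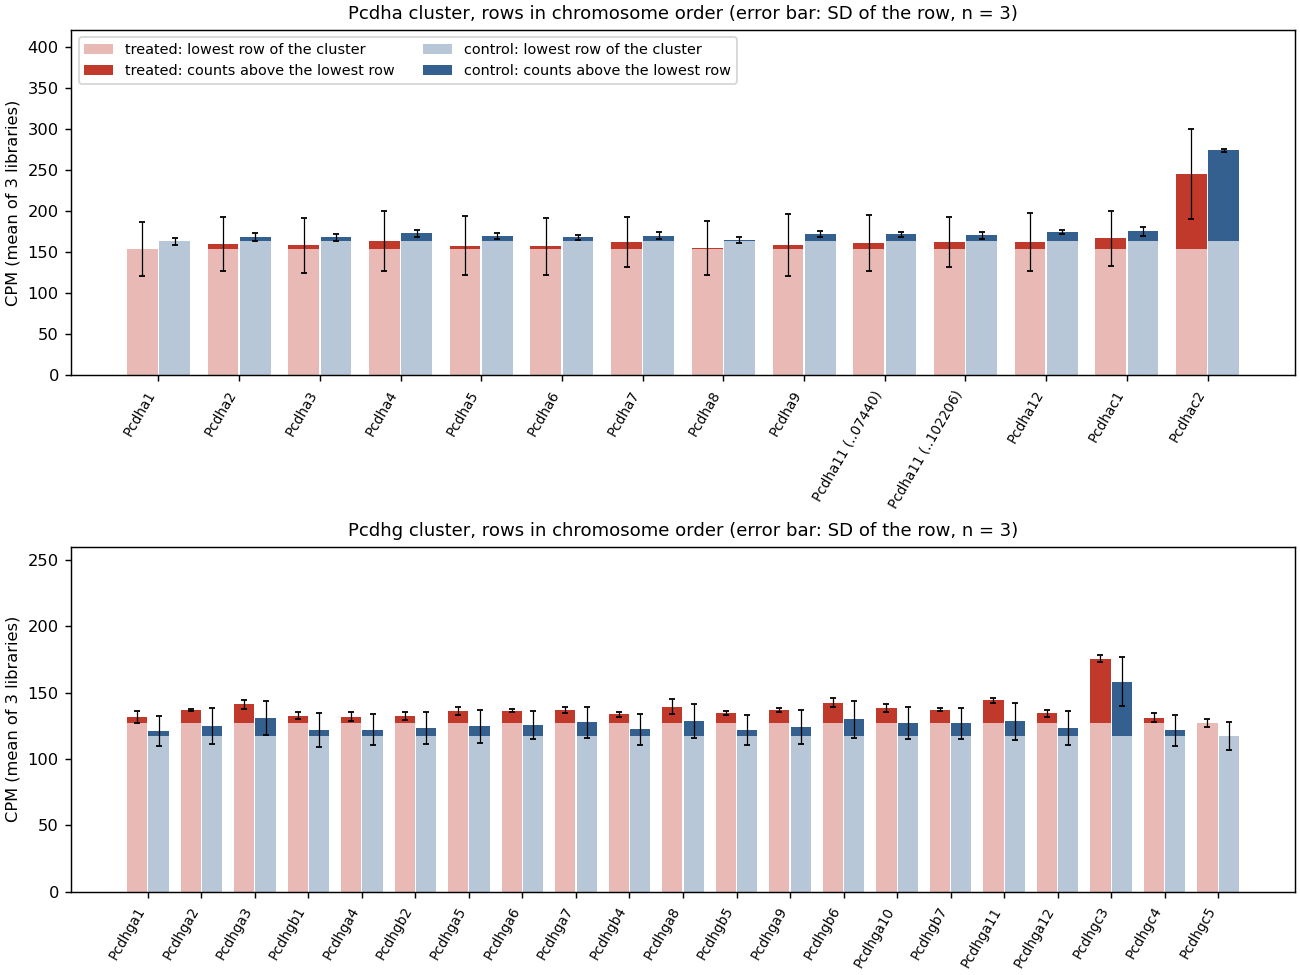
Mean CPM of each Pcdha row (upper panel) and Pcdhg row (lower panel) in chromosome order, treated bars left of control bars, split into the lowest row of the cluster (pale) and counts above it (dark), with the SD of the row (n = 3) as a bar. The 2 rows with the symbol Pcdha11 also carry the end of their gene ID. The pale part makes up most of every bar, and Pcdhac2 and Pcdhgc3 have the tallest dark parts.

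The Pcdhb rows share no constant exons, and their exons do not overlap, apart from those of Pcdhb21 and Pcdhb22, which overlap in part. How reads that match more than 1 Pcdhb gene were counted is not given, so the rows may not be fully independent. The sum of the 22 rows was 115.8, 116.7 and 115.1 CPM in treated replicates 1, 2 and 3, against 99.3, 104.9 and 101.9 CPM in control replicates 1, 2 and 3. The groups did not overlap, and the treated libraries, replicate 3 included, lay within 2 CPM of each other. The log2 ratio of the mean sums was 0.18, and 0.16 to 0.20 with each library left out. It is given as a description, with no test. Of the 21 tested Pcdhb rows, 18 had log2 fold changes above 0 and 3 below (median 0.19), and none had an unadjusted edgeR p under 0.05. Over all 16019 tested genes, 8454 were above 0 and 7565 below.

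For 4 Pcdhb genes the treated libraries all exceeded the controls (4 of 21, 19.0%), as they did for 7.07% of all genes. Pcdhb12 was read at 3.66, 3.27 and 6.84 CPM in treated replicates 1, 2 and 3, against 2.58, 2.88 and 2.57 CPM in control replicates 1, 2 and 3. Treated replicate 3 stood well above the other treated libraries. The log2 fold change was 0.76 ± 0.35 (edgeR adjusted p = 0.737), and 0.37 without that library. Pcdhb3 averaged 4.14 ± 0.657, Pcdhb4 2.25 ± 0.276 and Pcdhb7 3.99 ± 1.30 CPM in treated ganglia, against 3.02 ± 0.286, 1.51 ± 0.265 and 2.69 ± 0.496 CPM in controls. For none of these 4 did the groups touch. The abundant Pcdhb14 and Pcdhb17 averaged 11.9 ± 1.44 and 11.1 ± 2.86 CPM in treated ganglia, against 10.3 ± 1.43 and 9.31 ± 0.945 CPM in controls. Pcdhb22 averaged 10.1 ± 1.20 CPM in treated ganglia and 10.7 ± 1.33 CPM in controls. These 3 overlapped between the groups. Per kilobase of exon, Pcdhb20 was highest at 2.85 CPM per kb in treated ganglia and 2.52 in controls, followed by Pcdhb17 at 2.39 in treated ganglia and 2.00 in controls. Pcdhb16 came next at 1.81 in treated ganglia and 1.64 in controls. Pcdhb1, the first gene, was lowest at 0.029 CPM per kb in treated ganglia and 0.027 in controls.

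**Figure D5:**
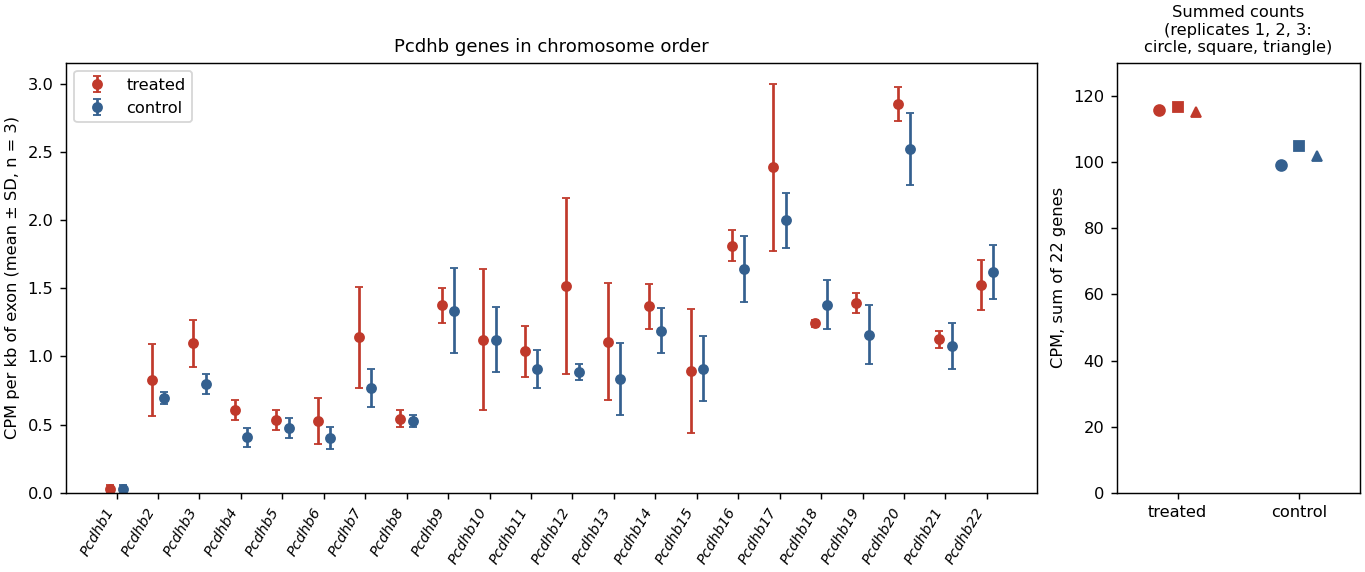
Level of each Pcdhb gene in CPM per kilobase of exon in chromosome order, treated left of control, as the mean of 3 libraries with the SD, beside the sum over the cluster in each library. Pcdhb20, Pcdhb17 and Pcdhb16 are the highest, and the 3 treated sums (115.1 to 116.7 CPM) lie above the 3 control sums (99.3 to 104.9 CPM).

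Genes that work with cadherins were taken as lists and had no call with edgeR. Of 18 catenins and junction partners, 2 stood under an unadjusted edgeR p of 0.05 (11.1%), both higher in treated ganglia, beside 6.67% of all genes (4% higher), and the median log2 fold change was 0.06. Jup (plakoglobin, the catenin shared by adherens junctions and desmosomes) was read at 142, 135 and 143 CPM in treated replicates 1, 2 and 3, against 106, 118 and 98.6 CPM in control replicates 1, 2 and 3. Its log2 fold change was 0.39 ± 0.09 (edgeR adjusted p = 0.595), with no overlap. Nectin1, an adhesion protein that starts such junctions, was read at 32.3, 26.4 and 41.3 CPM in treated replicates 1, 2 and 3, against 19.7, 25.3 and 17.2 CPM in control replicates 1, 2 and 3. It too was without overlap, with a log2 fold change of 0.68 ± 0.20 (edgeR adjusted p = 0.670). Ctnnb1 (beta-catenin) averaged close to level in both groups, at 293 to 304 CPM in treated libraries and 284 to 294 CPM in controls.

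Of the 21 other genes of the cadherin superfamily, 15 were tested and 1 stood under the unadjusted p (6.67%, equal to the share of all genes), Fat4, a giant cadherin of planar polarity (log2 fold change 0.35 ± 0.14). Its ligand Dchs1 had -0.26 ± 0.14. Of the 9 WAVE complex genes, 1 did (11.1%), Wasf2 (0.30 ± 0.12), with a list median of -0.05, and the complex's Abi1 had 0.16 ± 0.09. None of the 12 genes of protocadherin promoter choice and chromatin did. Ctcf, which loops enhancers to protocadherin promoters, was at 43.0 to 45.5 CPM in treated libraries and 41.8 to 44.3 CPM in controls, with overlap. Smchd1, a repressor of the clusters, was at 62.5 to 65.5 CPM in treated libraries and 59.8 to 61.6 CPM in controls, without overlap and with a log2 fold change of 0.06 ± 0.08. Nipbl, the cohesin loader, had 0.14 ± 0.09 and the DNA methyltransferase Dnmt3b 0.65 ± 0.46. None of the 7 genes of cadherin cleavage did either, and their log2 fold changes, from 0.02 to 0.26, were all positive. Over all tested genes, 8454 of 16019 were positive. Adam10, the protease that sheds cadherins, had 0.19 ± 0.13 (edgeR adjusted p = 0.754), and Psenen, of gamma-secretase, 0.25 ± 0.25.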

How the data were processed

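RNA was sequenced from about 6 ng per library with a strand-specific kit at 100 bp, per the labels' protocols. Bcl2fastq 2.20, STAR 2.7.7a, DESeq2, edgeR and build mm10 are named in the submitters' processing notes. The deposited values are counts of exonic reads per gene. How reads were counted, with which annotation and strand setting, is not given in the sources used here. Of 32719 gene identifiers, 32663 matched GENCODE M21 (GRCm38), including all 96 members. No non-clustered member has exons that overlap another gene of the files.

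Counts were fitted with edgeR 4.0.16 (R 4.3.3): filterByExpr with a minimum count of 10, TMM scaling, a robust quasi-likelihood F test and Benjamini-Hochberg adjustment over all 16019 tested genes, with a threshold of 0.05. The standard error is the log2 fold change over the square root of F. CPM use the TMM-adjusted library size. Values per kilobase use the exon union. Members, lists and tests were chosen with earlier results of these data known. Named by rule are non-clustered members at a mean of at least 5 CPM or among the 10 with the smallest p, in each cluster the 3 most abundant rows and over the clusters the 5 with the smallest p, 9 preset cadherins, and in each pathway list the 2 with the smallest p. Cdh3, Cdh20, Cdhr2, Pcdh8, Pcdh12, Pcdhb16, Pcdhb20, Ctnnb1, Ctcf, Smchd1 and P2rx2 were added after their values were seen. The design assumed that sums per cluster would be less affected by shared exons. The counts showed that shared exons were counted in each row, so a fit with the lowest row of each cluster taken once was added after seeing the data. Alternatives were other scalings and filters, DESeq2 1.42.0, limma 3.58.1 (voom, with and without sample weights), a block for the replicate number, and leaving out each library. No 2 libraries agreed within sampling noise. On simulated counts of treated and control libraries (15743 genes), edgeR found 48.5% of the genes changed 2-fold and 77.8% of those changed 4-fold, with 9.49% of its 137 calls false, against 26.2% of 202 for DESeq2. The simulation drew every gene independently with the same dispersion in all libraries, so it held no outlying library and no shift in cell mix. How far these rates hold for the real libraries was not tested. Motifs were searched in the RefSeq promoter table, which holds 27 of the members.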

Additional observations from a re-analysis of the deposited data

How the results depend on the processing

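No member was called with edgeR under any scaling, filter or left-out library (0 to 0 calls), and the DESeq2 Wald test called 2. Over all genes, where edgeR called 0, the count was 26 with no filter on low counts, 89 with DESeq2, 8 with voom and sample weights, 1 with the replicate block, and 0 to 9 with each library left out (7 without treated replicate 1, 9 without treated replicate 3). The replicate block called no member. The main fit had no block, because the labels do not say that same-numbered libraries are pairs. Deviations of same-numbered libraries from their group means correlated at 0.014, 0.564 and 0.488 across genes for replicates 1, 2 and 3. Whether these libraries were paired is not known. Members at an unadjusted p under 0.05 were 6, with 10 under voom with sample weights and 5 to 10 with each library left out. The matching shares of all genes are not given here. The median log2 fold change of Cdhr was 0.21 with a filter at 1 CPM in 3 libraries, which leaves Cdhr1 alone, against -0.09, and that of Pcdhg was 0.22 with shared reads taken once, against 0.12.

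Of 40 named members, 29 kept their sign under all 16 alternatives. No log2 fold change of the other 11 had been called by edgeR. Under voom with sample weights the sign turned to give 0.040 for Pcdh10, -0.014 for Pcdh15, -0.070 for Cdh5, 0.080 for Cdh10, 0.11 for Cdh12 and 0.084 for Cdh15, and plain voom gave 0.064 for Cdh15. With each library left out, 8 of them turned without treated replicate 3, and their ranges over the left-out libraries were -0.32 to 0.0062 for Pcdh10, -0.14 to 0.45 for Cdh5, -0.14 to 0.054 for Cdh10, -0.32 to 0.14 for Cdh12, -0.23 to 0.070 for Pcdhac1, -0.27 to 0.053 for Pcdha12, -0.16 to 0.018 for Pcdhb22 and -0.17 to 0.14 for Cdh15. Leaving out treated replicate 1 turned Pcdh9 (range -0.062 to 0.23) and Pcdh1 (-0.052 to 0.14). Further turns were those of Pcdh9 without treated replicate 2 (-0.014), Pcdh1 without control replicate 3 (-0.00062), Cdh10 without control replicate 2 (0.020), and Pcdhb22 (0.018) and Cdh15 (0.12) without control replicate 1. With shared reads taken once, Pcdhac1 was at 0.12. The cause was not tested.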
